A study of Homo sapiens with 12 samples.

Results

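The mitotic and G2/M genes described here are 49 genes that carry a cell from late G2 through division: cyclins and their kinase, spindle and kinetochore proteins, motors, cytokinesis proteins and transcription factors of the programme. They were chosen by name, from a list of symbols, out of the 54628 symbols in a table of raw read counts. The choice was made with earlier results of these data known. All 49 were found, all passed the filter on low counts that left 15173 genes for testing, and the lowest single value among them was 24 reads. Poly(A) RNA came from OCI-AML3, an established human acute myeloid leukaemia line, after 24 h of treatment. There were 4 groups of 3 libraries: the combination of venetoclax and an ERK inhibitor, the ERK inhibitor alone (ERKi, named as compound 27 in the labels), venetoclax alone (ABT199, an inhibitor of the survival protein BCL2), and the solvent DMSO. Doses are not given in the labels, and all groups are of this 1 line. Levels are given as CPM, the read count divided by the scaled library size in units of 1e+06 reads.

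Mitotic genes are transcribed late in the cell cycle. In quiescent cells and in G1 the DREAM complex, built on the MuvB core, holds them silent by binding a short promoter element called the CHR. In late S phase MuvB exchanges its repressive partners for B-MYB (MYBL2) and then FOXM1, which switch the genes on, often with the factor NF-Y bound to CCAAT boxes just upstream. Cyclin B with CDK1 then drives mitotic entry, and the anaphase-promoting complex (APC/C) with its activator CDC20 ends mitosis by marking cyclin B and securin for destruction. In cultures of growing cells the level of these RNAs therefore moves with the share of cells in G2 and M phase. In bulk RNA, fewer cells in those phases and less RNA per cell cannot be told apart.

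The sequence elements of this programme stood in many of the members' promoters. The RefSeq promoter table (GRCh38.p14) held 52 promoters for 42 of the 49 genes, each covering 250 bases before and 50 bases after the transcription start. A CHR, searched as TTTGAA or TTCGAA on both strands, was found in 36 of these 52 promoters (69.2%), against 16.4% of all 35116 promoters in the table. A CCAAT box, searched as CCAAT on both strands, was in 39 (75.0%), against 34.6%. Both were in 30 (57.7%), against 6.38%. These are letter matches and not measured binding sites. AURKA, BUB3, TTK, TPX2, UBE2C, BIRC5 and FOXM1 had no entry. The 7 stretches below, 120 bases upstream of the start, are shown because CDC20 and PLK1 were the members with the largest differences between the combination and ERKi, because CCNB2, PRC1 and HMMR show the spacing of the elements, and because CCNB1 and MYBL2 lack a CHR match in the searched window. Each runs 5′ to 3′ on the gene's own strand, and capitals mark CHR and CCAAT matches in either direction.
CDC20: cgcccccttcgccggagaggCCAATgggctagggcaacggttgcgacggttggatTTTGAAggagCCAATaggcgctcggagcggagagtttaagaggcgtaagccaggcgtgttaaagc
PLK1: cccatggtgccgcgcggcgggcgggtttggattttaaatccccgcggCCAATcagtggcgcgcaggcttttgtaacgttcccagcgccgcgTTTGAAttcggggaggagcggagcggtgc
CCNB2: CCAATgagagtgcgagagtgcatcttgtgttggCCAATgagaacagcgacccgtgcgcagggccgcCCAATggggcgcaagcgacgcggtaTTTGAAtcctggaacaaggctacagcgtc
PRC1: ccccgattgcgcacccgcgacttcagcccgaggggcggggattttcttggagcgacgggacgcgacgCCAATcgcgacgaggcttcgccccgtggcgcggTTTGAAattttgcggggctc
HMMR: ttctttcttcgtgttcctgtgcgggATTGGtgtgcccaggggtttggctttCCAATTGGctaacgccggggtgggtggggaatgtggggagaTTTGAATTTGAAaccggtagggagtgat
CCNB1: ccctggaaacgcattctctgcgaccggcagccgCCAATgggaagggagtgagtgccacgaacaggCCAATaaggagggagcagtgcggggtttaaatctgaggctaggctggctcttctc
MYBL2: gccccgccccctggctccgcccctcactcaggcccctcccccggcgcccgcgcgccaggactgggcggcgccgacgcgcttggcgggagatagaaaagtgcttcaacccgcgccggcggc
They lie at chr1:43358861-43358980, chr16:23678769-23678888, chr15:59105026-59105145, chr5:163460512-163460631, chr5:69167030-69167149 and chr20:43666994-43667113 on the plus strand, and at chr15:90994536-90994655 on the minus strand for PRC1. In PLK1 a CHR match starts at -29 from the transcription start and a CCAAT match at -73, in PRC1 they start at -20 and -53, and in CCNB1 the CCAAT matches start at -87 and -55. In HMMR 2 CHR matches stand directly next to each other, and a CCAAT match overlaps one in the other direction. CHR matches of members started mostly close to the transcription start, in 21.2% of their promoters at -50 to -26 and in 23.1% at -25 to -1, against 1.51% and 1.26% of all promoters. CCAAT matches lay further upstream, in 44.2% of member promoters at -75 to -51, against 7.62% of all promoters.

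**Figure D1:**
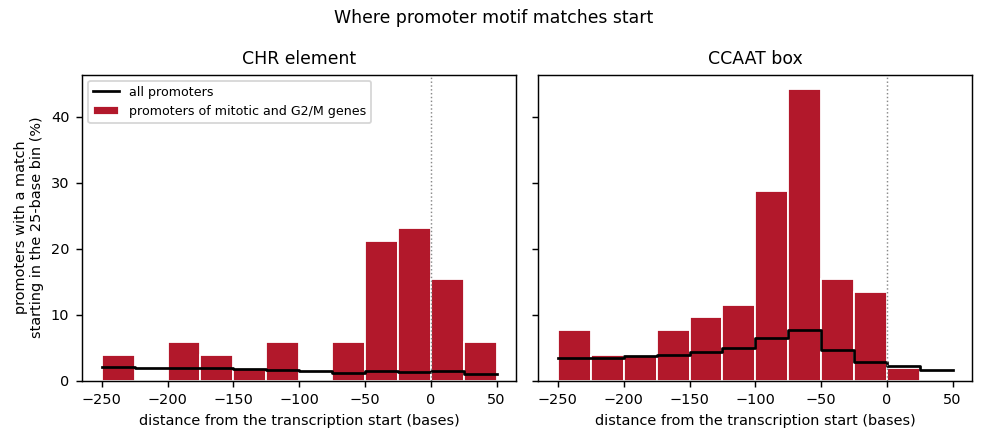
Share of promoters (%) in which a CHR (left) or CCAAT (right) match starts in each 25-base bin, by distance from the transcription start in bases. Bars are the 52 promoters of mitotic and G2/M genes and the black line is all 35116 promoters. The bars are highest at -25 to -1 for the CHR (23.1%) and at -75 to -51 for the CCAAT box (44.2%).

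The libraries held 19199296 to 21275065 counts. The myeloid lineage was checked by 14 myeloid leukaemia markers, which cannot tell OCI-AML3 from another myeloid line. All 14 had reads in every library. Their summed levels were 7870 to 8170 CPM in combination, 6560 to 6810 in ERKi, 3530 to 3630 in venetoclax and 3550 to 3720 in DMSO libraries. The highest mean was that of NPM1 in DMSO, at 1880 CPM, and of LYZ in the combination, at 3990 CPM. MPO, ITGAM and CSF2RA were the lowest in DMSO, with means of 1.72, 1.73 and 0.126 CPM. T and B cell, erythroid and epithelial markers summed to at most 1.52, 0.279 and 1.8 CPM in any library. Of these, 3 of 7, 2 of 5 and 1 of 5 were at 0 in all 12 libraries. All 8 fibroblast markers had some reads, summing to 2.92 to 3.39 CPM in combination, 11.8 to 26.3 in ERKi, 14.3 to 25.3 in venetoclax and 7.15 to 36.5 in DMSO libraries, and the part of these and of the myeloid markers in the results below was not tested. In the DMSO group, replicate 1 differed more from its partners than any other replicate did: chi-square divided by its degrees of freedom was 16.3 and 15.37 there, against 2.256 to 5.115 for all other replicate pairs. For the 49 members as a set, counts of called members and medians against DMSO are therefore given with and without it. Those of the single role groups are given only with it. Of the single members, leaving out DMSO replicate 1 moved no ERKi value against DMSO by over 1.5 times, 1 combination value (ASPM) and 2 interaction values (BUB3 and SPC25). Venetoclax values against DMSO were not counted in this way. Over all alternatives run, 17 of those 49 values changed sign or call. Without DMSO replicate 1, SPC25 with venetoclax was -0.18 in place of -0.85. In PLK1 and AURKB, where this library was the highest, the combination was at -0.24 and -0.26 against DMSO without it, in place of -0.35 and -0.38. The labels do not say that replicates were separate cultures, so the spread that p-values rest on may be a technical one.

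The mitotic genes fell together under ERKi, and stood between the ERKi and DMSO levels under the combination. Their reads made up 0.5894%, 0.5691% and 0.5839% of all counts in the combination libraries, 0.3651%, 0.3670% and 0.3638% in the ERKi libraries, 0.9054%, 0.8929% and 0.9184% in the venetoclax libraries and 0.8172%, 0.8840% and 0.8826% in the DMSO libraries. The combination, ERKi and DMSO shares did not overlap. All venetoclax shares lay above all DMSO shares.

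ERKi against DMSO lowered every member. The edgeR quasi-likelihood test with Benjamini-Hochberg adjustment called 49 of 49 lower at an adjusted p under 0.05, against a background of 35.2% of all tested genes lower and 34.5% higher. The median log2 fold change of the members was -1.38, against 0.01 over all tested genes, and 44 of the 49 fell at least 2-fold. No member was called higher, also at an unadjusted p under 0.05 and with DESeq2 or limma-voom (0 in each). All 49 were again lower without DMSO replicate 1, with a median of -1.40.

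With the combination, set against ERKi alone, 47 of 49 members were higher and 2, BUB3 and SPC25, were not called, against a background of 26.5% higher and 24.3% lower. The median was 0.80, against -0.00289 over all tested genes, and 7 members rose at least 2-fold: CDC20, PLK1, MYBL2, AURKB, ESPL1, BIRC5 and CDCA8. None was called lower by edgeR's quasi-likelihood test, at an unadjusted p under 0.05, or by DESeq2 or limma-voom (0 in each). Scaling by total counts in place of TMM factors moved the median of all genes by -0.12 in this comparison and turned the split of calls from 4023 higher and 3694 lower to 2763 higher and 5181 lower, with 47 members still higher at a median of 0.68.

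The combination against DMSO left most members lower: 46 of 49 fell, 1 (CDC25B) rose and 2 (NEK2 and ASPM) were not called, against a background of 33.4% lower and 30.4% higher. The median was -0.53, against -0.01 over all tested genes, and 4 members (SPC25, MAD2L1, CCNA2 and CDK1) fell at least 2-fold. Leaving out DMSO replicate 1 gave 48 lower and 1 higher, with a median of -0.53. Against venetoclax alone, the combination had 47 members lower, CDC25B higher and ASPM not called, against a background of 34.2% lower and 32.1% higher, with a median of -0.62 for the members and -0.00315 over all tested genes.

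Venetoclax against DMSO gave 1 call among the members. CCNB1 was called higher, against a background of 0.0198% of genes higher and 0.382% lower, and the members' median was 0.09, against 0.00238 over all tested genes. Of the 49 log2 fold changes 42 were above 0. At an unadjusted p under 0.05, 14 members were higher and 1 was lower, against a background of 4.01% of genes higher and 5.09% lower at that limit. No member was called lower by edgeR's quasi-likelihood test, DESeq2 or limma-voom (0 in each). DESeq2 called 2 higher, CCNB1 and NUF2. Without DMSO replicate 1 the median was 0.07, with 1 member called higher. The counts of signs and of unadjusted p-values were made only with all 12 libraries. Across the members the venetoclax values followed GC content, with a Spearman correlation of -0.543. It was -0.00587 with an offset for GC content that is described further on and weakens such a correlation by construction. With that offset the median was 0.06 and no member was called.

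The interaction compares the log2 effect of venetoclax in the presence of ERKi with its log2 effect in the absence of ERKi. It was called above 0 for 46 of 49 members, against a background of 21.3% of genes above and 18% below, with a median of 0.73 against 0.01 over all tested genes. BUB3, SPC25 and SGO1 were not called. The count was again 46 without DMSO replicate 1, with a median of 0.72. No member was called below 0 by edgeR's quasi-likelihood test, at an unadjusted p under 0.05, or by DESeq2 or limma-voom (0 in each). The comparisons share the ERKi or DMSO libraries, so they are not independent of each other. Total-count scaling moved the all-gene median of the interaction by -0.11 and its split from 3227 above and 2724 below to 2334 above and 3765 below, with 45 members above.

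**Figure D2:**
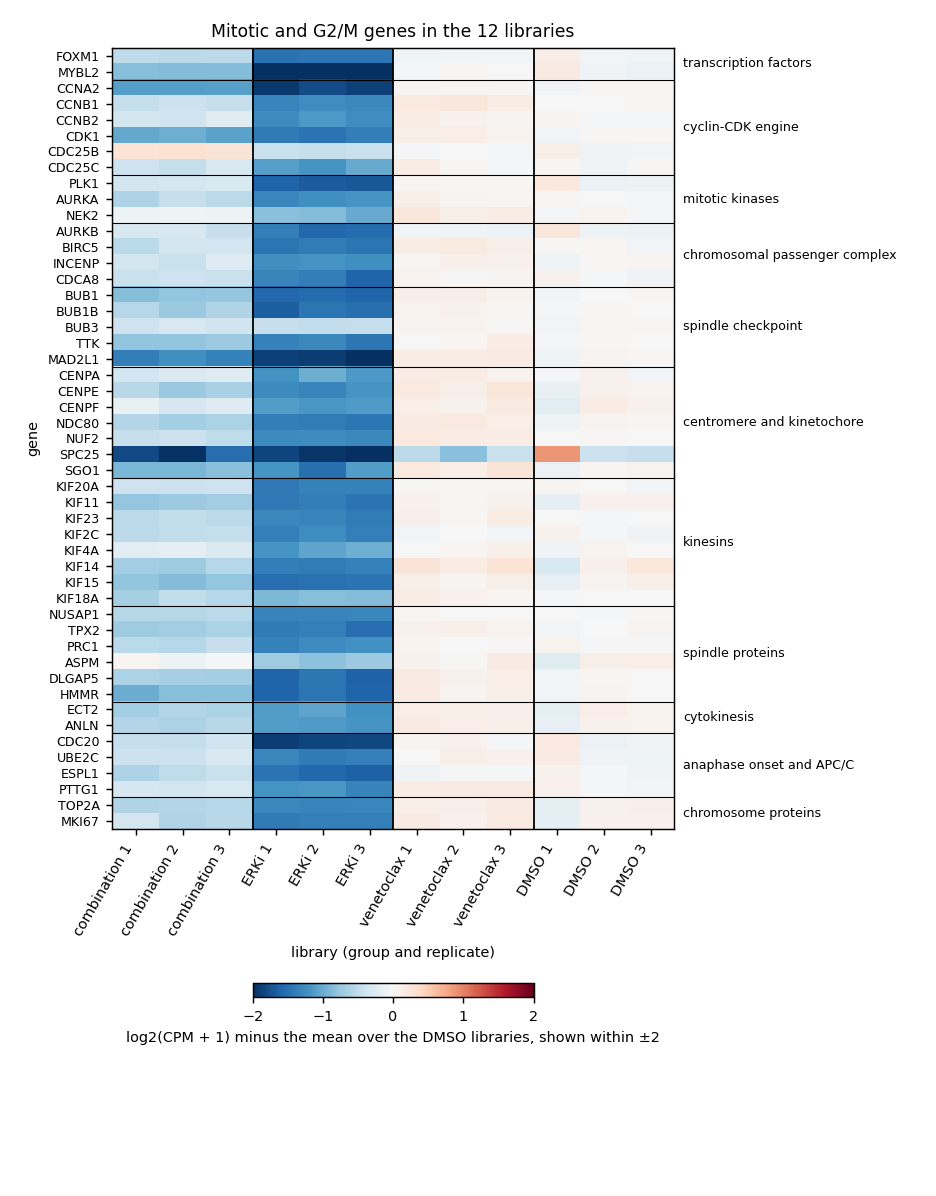
Each row is 1 of the 49 mitotic and G2/M genes and each column 1 library, grouped as combination, ERKi, venetoclax and DMSO. Colour is log2(CPM + 1) minus the gene's mean over the DMSO libraries, shown within ±2. ERKi columns are blue throughout, with library means over the genes of -1.34, -1.33 and -1.36, and combination columns are paler, at -0.576, -0.575 and -0.544.

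Both transcription factors of the programme were higher in the combination than with ERKi (median 1.09) and lower with ERKi than with DMSO (median -1.79). MYBL2 (chromosome 20, 43667114 to 43716482, GRCh38) encodes B-MYB, the activator that joins MuvB. It had 123, 122 and 122 CPM in the combination libraries, 52.4, 53.2 and 51.9 in the ERKi libraries, 219.7, 229 and 224 in the venetoclax libraries and 255, 214 and 206 in the DMSO libraries. The combination libraries stood apart from both ERKi and DMSO, with no overlap. MYBL2 was 1.22 (SE 0.066, adjusted p = 7.82e-10) on the log2 scale in the combination against ERKi, -0.87 (SE 0.062, adjusted p = 2.86e-09) against DMSO, and -2.10 (SE 0.066, adjusted p = 6.62e-14) with ERKi against DMSO. FOXM1, the forkhead activator of late G2 genes, was at 0.96, -0.53 and -1.49 in the same comparisons. Part of the FOXM1 gene overlaps ITFG2 on the other strand, and whether the counting used strand is not given in the sources used here.

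Of the 6 members of the cyclin and CDK engine, all 6 fell with ERKi (median -1.26) and all 6 were higher in the combination than with ERKi (median 0.76). CCNB1 (chromosome 5, 69167150 to 69178245) encodes cyclin B1, the partner of CDK1 at mitotic entry. Its reads came to 148, 154 and 151 CPM in the combination libraries, 82.7, 86.6 and 84.4 in the ERKi libraries, 238, 243 and 231 in the venetoclax libraries and 205, 206 and 210.3 in the DMSO libraries. No group overlapped another for CCNB1, and venetoclax libraries were the highest. The log2 fold change was 0.84 (SE 0.042, adjusted p = 4.07e-10) in the combination against ERKi, -1.29 (SE 0.042, adjusted p = 1.03e-13) with ERKi against DMSO, and 0.19 (SE 0.041, adjusted p = 0.0493) with venetoclax against DMSO. That call was lost when DMSO replicate 2 or 3 or any venetoclax library was left out, with adjusted p between 0.108 and 0.308. It was also lost for CCNB1 with total-count scaling (adjusted p = 0.0729), no filter (0.0773), the replicate block (0.088), an offset for GC content that is described further on (0.0992) and only the libraries compared (0.384). CCNB2, the other mitotic B cyclin, had 105, 104 and 115 CPM in the combination libraries, 56.8, 61.2 and 57.1 in the ERKi libraries, 152, 146 and 143 in the venetoclax libraries and 142, 135 and 134 in the DMSO libraries. Combination values were above every ERKi value and below every DMSO value. CCNB2 was 0.89 (SE 0.054, adjusted p = 2.8e-09) in the combination against ERKi and -0.34 (SE 0.053, adjusted p = 2.75e-05) against DMSO.

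CDK1, the kinase of cyclins A and B, and CCNA2, cyclin A2, fell at least 2-fold in the combination, by log2 values of -1.03 and -1.11 against DMSO. CDC25C, a phosphatase that activates CDK1, was -0.42. CDC25B (chromosome 20, 3786951 to 3806115), the phosphatase that starts CDK1 activation at the centrosome, went against the rest. It had 108, 109.9 and 107 CPM in the combination libraries, 64.9, 64.1 and 65 in the ERKi libraries, 86.3, 89.7 and 86.5 in the venetoclax libraries and 96.7, 84.7 and 86 in the DMSO libraries. All combination libraries were above all DMSO and venetoclax libraries, and all ERKi libraries were below them. CDC25B was 0.28 (SE 0.052, adjusted p = 0.000175) in the combination against DMSO, 0.31 (SE 0.052, adjusted p = 6.75e-05) against venetoclax, 0.74 (SE 0.053, adjusted p = 1.33e-08) against ERKi, and -0.46 (SE 0.053, adjusted p = 6.86e-07) with ERKi against DMSO. CDC25B was still called higher in the combination with the GC-content offset, at 0.15 against DMSO (adjusted p = 0.0015) and 0.12 against venetoclax (adjusted p = 0.00617).

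Among the 3 mitotic kinases, PLK1 (chromosome 16, 23678889 to 23690367), the polo kinase of mitotic entry, spindle assembly and cytokinesis, had the largest difference between the combination and ERKi. PLK1 reached 158, 164 and 166 CPM in the combination libraries, 67.1, 64.4 and 62.8 in the ERKi libraries, 209, 209 and 209.8 in the venetoclax libraries and 239, 189.5 and 192 in the DMSO libraries. The groups were apart except venetoclax and DMSO, and DMSO replicate 1 was the highest library. The log2 values were 1.33 (SE 0.072, adjusted p = 8.06e-10) for the combination against ERKi, -0.35 (SE 0.068, adjusted p = 0.000304) against DMSO and -1.68 (SE 0.071, adjusted p = 2.38e-12) for ERKi against DMSO. AURKA, the centrosomal aurora kinase, was at 0.71 and -1.25 in the combination against ERKi and in ERKi against DMSO. NEK2, the kinase that parts the centrosomes, showed 64.1, 64.6 and 63.8 CPM in the combination libraries, 37.9, 37.3 and 33.6 in the ERKi libraries, 81, 74.8 and 76.6 in the venetoclax libraries and 66.7, 72.5 and 67.2 in the DMSO libraries. The combination libraries lay just below the lowest DMSO library. NEK2 was -0.10 (SE 0.056, adjusted p = 0.126) in the combination against DMSO, short of the threshold, and 0.82 (SE 0.058, adjusted p = 1.17e-08) against ERKi. Without DMSO replicate 1 the difference from DMSO was -0.13 (adjusted p = 0.0426) and passed it. The sign turned with the GC-content offset, at 0.06 (adjusted p = 0.302).

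All 4 members of the chromosomal passenger complex, which corrects faulty kinetochore attachments and guides cytokinesis, fell with ERKi (median -1.45) and were higher in the combination than with ERKi (median 1.01). BIRC5 (chromosome 17, 78214253 to 78225635), survivin, had 120.2, 135 and 134 CPM in the combination libraries, 62.8, 65.5 and 63 in the ERKi libraries, 194, 197 and 189 in the venetoclax libraries and 178, 178 and 167 in the DMSO libraries. The combination again sat between ERKi and DMSO with no overlap, at 1.02 (SE 0.052, adjusted p = 4.36e-10) against ERKi and -0.43 (SE 0.05, adjusted p = 1.24e-06) against DMSO on the log2 scale. AURKB, the kinase of the complex, had 63.5, 63.9 and 57.3 CPM in the combination libraries, 30.4, 26.3 and 26.6 in the ERKi libraries, 76.6, 75.5 and 73.1 in the venetoclax libraries and 93.1, 74.3 and 72.9 in the DMSO libraries. DMSO replicate 1 held the highest AURKB value, and no combination library overlapped another group. AURKB was 1.15 (SE 0.088, adjusted p = 3.08e-08) in the combination against ERKi and -1.53 (SE 0.087, adjusted p = 9.42e-11) with ERKi against DMSO. The scaffold INCENP and the subunit CDCA8 (borealin) were at 0.87 and 1.01 in the combination against ERKi.

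The genes of anaphase onset had a median of 1.02 for the combination against ERKi, and all 4 were called. CDC20 (chromosome 1, 43358981 to 43363203), the APC/C activator, was the member with the largest rise. It had 128, 128 and 135 CPM in the combination libraries, 47.5, 49.1 and 49.5 in the ERKi libraries, 184, 188 and 174 in the venetoclax libraries and 203, 164 and 169 in the DMSO libraries. Combination libraries were above all ERKi libraries and below all venetoclax and DMSO libraries. CDC20 was 1.42 (SE 0.07, adjusted p = 3.49e-10) in the combination against ERKi, -0.46 (SE 0.067, adjusted p = 1.45e-05) against DMSO, and -1.88 (SE 0.07, adjusted p = 4.89e-13) with ERKi against DMSO. ESPL1, the protease separase that cleaves cohesin, was at 1.05 in the combination against ERKi. PTTG1, its inhibitor securin, was at 0.90, and UBE2C, an APC/C ubiquitin-conjugating enzyme, at 0.99. UBE2C has processed copies in the genome, of which UBE2CP5 held 576 counts over all libraries, 2.96% of the 19490 of UBE2C.

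**Figure D3:**
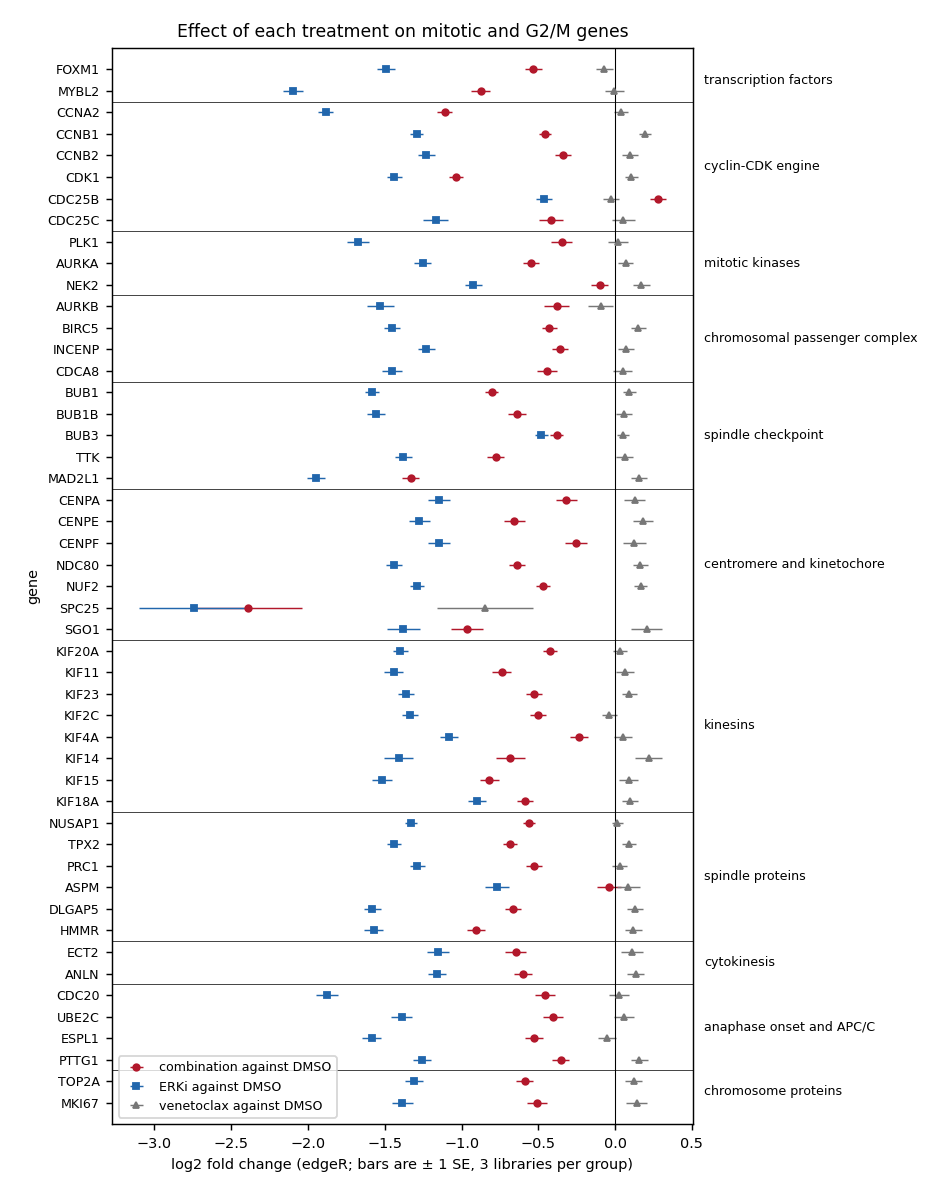
Log2 fold change against DMSO of the combination (red circles), ERKi (blue squares) and venetoclax (grey triangles) for each of the 49 genes, by role, with bars of ± 1 SE from 3 libraries per group. ERKi points all lie left of 0, between -2.75 for SPC25 and -0.46 for CDC25B, combination points lie to their right, and venetoclax points lie between -0.09 for AURKB and 0.22 for KIF14, except SPC25 at -0.85.

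The spindle checkpoint, which holds anaphase until every kinetochore is attached, had 5 members. All 5 were lower with ERKi (median -1.56) and 4 were higher in the combination than with ERKi (median 0.62). BUB1B, which encodes the checkpoint protein BUBR1, had 93.9, 83.9 and 92.5 CPM in the combination libraries, 44, 50.3 and 48.7 in the ERKi libraries, 147, 148 and 143 in the venetoclax libraries and 137, 143 and 141 in the DMSO libraries. Its combination values did not overlap with those of any other group, at 0.92 (SE 0.059, adjusted p = 4.06e-09) against ERKi and -0.64 (SE 0.056, adjusted p = 3.6e-08) against DMSO. MAD2L1, the checkpoint protein MAD2, was the second lowest member in the combination and the third lowest with ERKi, with -1.33 for the combination and -1.95 for ERKi against DMSO. The checkpoint kinases BUB1 and TTK (MPS1) were at 0.78 and 0.60 in the combination against ERKi. BUB3 (chromosome 10, 123154402 to 123170467), the WD-repeat partner of BUB1 and BUBR1, had the smallest difference between the combination and ERKi. It had 169, 180.4 and 171 CPM in the combination libraries, 163, 161 and 162 in the ERKi libraries, 234, 237 and 230.5 in the venetoclax libraries and 218, 232 and 228 in the DMSO libraries. The combination libraries were only just above the ERKi libraries, though without overlap. BUB3 was 0.10 (SE 0.042, adjusted p = 0.0566) in the combination against ERKi, -0.48 (SE 0.042, adjusted p = 2.41e-08) with ERKi against DMSO, and 0.05 (SE 0.059, adjusted p = 0.543) in the interaction. Under RLE size factors (adjusted p = 0.043), DESeq2 (adjusted p = 0.0351), the fit of only the libraries compared (adjusted p = 0.0409) and the GC-content offset (adjusted p = 4.68e-05) its difference from ERKi was called, and with total-count scaling it was -0.02.

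The centromere and kinetochore group had 7 members, all lower with ERKi (median -1.29), and 6 of them higher in the combination than with ERKi (median 0.80). CENPF (chromosome 1, 214603195 to 214664571), a large kinetochore protein that accumulates in G2, had 423, 372 and 394 CPM in the combination libraries, 216, 210.2 and 214 in the ERKi libraries, 516, 500.0 and 534 in the venetoclax libraries and 403, 519 and 498 in the DMSO libraries. Combination and DMSO libraries overlapped, with DMSO replicate 1 below the other DMSO libraries. CENPF was 0.89 (SE 0.073, adjusted p = 7.18e-08) in the combination against ERKi and -0.26 (SE 0.072, adjusted p = 0.00529) against DMSO. That last value was -0.10 (adjusted p = 0.109) with the GC-content offset, and CENPF was then not called. The centromeric histone CENPA, the motor CENPE, and the NDC80 complex subunits NDC80 and NUF2 were at 0.83, 0.62, 0.80 and 0.82 in the combination against ERKi.

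SGO1, the shugoshin that guards centromeric cohesin, had 8.65, 8.61 and 9.12 CPM in the combination libraries, 7.01, 5.4 and 7.36 in the ERKi libraries, 19.8, 19 and 20.6 in the venetoclax libraries and 15.7, 17.7 and 18.1 in the DMSO libraries. Its combination values lay above all ERKi values and below all DMSO values, at 0.42 (SE 0.11, adjusted p = 0.00603) against ERKi and -0.96 (SE 0.11, adjusted p = 6.02e-07) against DMSO. The interaction was 0.21 (SE 0.15, adjusted p = 0.293). SPC25 (chromosome 2, 168861521 to 168890430), a subunit of the NDC80 complex with few reads here, had 1.72, 1.41 and 2.31 CPM in the combination libraries, 1.66, 1.48 and 1.12 in the ERKi libraries, 5.59, 4.31 and 5.97 in the venetoclax libraries and 16.6, 6.08 and 5.93 in the DMSO libraries. Combination and ERKi overlapped, and 1 library, DMSO replicate 1, stood far above the other DMSO libraries. SPC25 was 0.35 (SE 0.4, adjusted p = 0.49) in the combination against ERKi, -2.39 (SE 0.35, adjusted p = 1.55e-05) against DMSO, -2.75 (SE 0.36, adjusted p = 3.17e-06) with ERKi against DMSO, and 1.20 (SE 0.51, adjusted p = 0.0732) in the interaction. Without DMSO replicate 1 the values against DMSO were -1.73 for the combination (adjusted p = 1.42e-06) and -2.08 for ERKi (adjusted p = 1.14e-07), and the venetoclax value was -0.18 in place of -0.85. The interaction of SPC25 was called without DMSO replicate 2 (1.45, adjusted p = 0.0237) or DMSO replicate 3 (1.46, adjusted p = 0.0224), and without DMSO replicate 1 it was 0.54 (adjusted p = 0.193).

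All 8 kinesins, the motors that build the spindle and move chromosomes, were lower with ERKi (median -1.38) and higher in the combination than with ERKi (median 0.78). KIF11 (chromosome 10, 92593130 to 92655395), the motor Eg5 that pushes the spindle poles apart, had 159, 164 and 167 CPM in the combination libraries, 100.1, 104 and 96.9 in the ERKi libraries, 287, 279 and 289 in the venetoclax libraries and 241, 288 and 289 in the DMSO libraries. Combination libraries were apart from ERKi and DMSO, at 0.70 (SE 0.061, adjusted p = 1.38e-07) against ERKi and -0.74 (SE 0.06, adjusted p = 1.39e-08) against DMSO. KIF20A, the cytokinesis motor MKLP2, had 90.8, 89.2 and 90.0 CPM in the combination libraries, 44.2, 46.6 and 46.5 in the ERKi libraries, 123, 124 and 124 in the venetoclax libraries and 125, 122 and 116 in the DMSO libraries. It did not overlap between combination and any other group, and was 0.97 (SE 0.048, adjusted p = 3.18e-10) against ERKi and -0.42 (SE 0.046, adjusted p = 4.66e-07) against DMSO. KIF20A overlaps the ends of BRD8 and CDC23 on the other strand. KIF23, the central spindle motor MKLP1, KIF2C, the depolymerase MCAK, and the chromokinesin KIF4A were at 0.83, 0.83 and 0.85 in the combination against ERKi. KIF14, which acts with citron kinase in cytokinesis, and KIF15, which acts beside Eg5, were at 0.73 and 0.70. KIF18A, which dampens chromosome movements, was lowest of the group at 0.31, and its interaction of 0.22 (SE 0.078, adjusted p = 0.0365) lost its call under 4 of the other settings and when any of 8 libraries was left out. With the GC-content offset KIF18A was instead at 0.56 in the combination against ERKi and 0.54 in the interaction (adjusted p = 9.9e-05).

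The 6 spindle proteins were lower with ERKi (median -1.38) and higher in the combination than with ERKi (median 0.76). DLGAP5 (HURP), which stabilises kinetochore fibres, had 71.6, 70.2 and 68.9 CPM in the combination libraries, 36, 40.1 and 35.6 in the ERKi libraries, 126, 118 and 122 in the venetoclax libraries and 108, 114 and 112 in the DMSO libraries. Its combination libraries were apart from all others, at 0.92 (SE 0.056, adjusted p = 2.72e-09) against ERKi and -0.67 (SE 0.053, adjusted p = 1.11e-08) against DMSO. The DLGAP5 value against DMSO was -0.43 with the GC-content offset. ASPM (chromosome 1, 197084127 to 197146669), which focuses the spindle poles, was in the combination the member nearest to the DMSO level with all 12 libraries and TMM scaling. It had 352, 319 and 334 CPM in the combination libraries, 208, 193 and 206 in the ERKi libraries, 363, 349 and 385 in the venetoclax libraries and 289, 372 and 374 in the DMSO libraries. The combination libraries lay above DMSO replicate 1 and below the other DMSO libraries, and the highest of them overlapped venetoclax. ASPM was -0.04 (SE 0.077, adjusted p = 0.65) in the combination against DMSO, -0.13 (SE 0.077, adjusted p = 0.155) against venetoclax, 0.73 (SE 0.078, adjusted p = 1.24e-06) against ERKi and -0.77 (SE 0.078, adjusted p = 1.51e-07) with ERKi against DMSO. Without DMSO replicate 1 the combination was -0.16 against DMSO (adjusted p = 0.0033). With the GC-content offset, ASPM was instead higher in the combination, by 0.20 against DMSO (adjusted p = 0.00153) and 0.18 against venetoclax (adjusted p = 0.00419). NEK2 was nearer to the DMSO level than ASPM in both of these settings, at -0.13 and 0.06. The microtubule proteins NUSAP1, TPX2, PRC1 and HMMR, which nucleate, bundle or anchor spindle fibres, were at 0.77, 0.76, 0.76 and 0.67 in the combination against ERKi.

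The 2 cytokinesis genes were lower with ERKi than with DMSO (median -1.16) and higher in the combination than with ERKi (median 0.53). ANLN (anillin), which organises the contractile ring, had 133, 128 and 136 CPM in the combination libraries, 91, 91 and 87.2 in the ERKi libraries, 226, 218 and 215 in the venetoclax libraries and 179, 212 and 210.5 in the DMSO libraries. The combination stood between ERKi and DMSO without overlap, at 0.56 (SE 0.06, adjusted p = 1.17e-06) against ERKi and -0.60 (SE 0.059, adjusted p = 1.43e-07) against DMSO. ECT2, the exchange factor that activates RhoA at the division plane, was at 0.51 against ERKi. Of the chromosome proteins, TOP2A (chromosome 17, 40388525 to 40417896), the topoisomerase that untangles sister chromatids, had 578, 584 and 592 CPM in the combination libraries, 357, 350.3 and 355 in the ERKi libraries, 954, 936 and 976 in the venetoclax libraries and 774, 925 and 937 in the DMSO libraries. Its combination libraries exceeded all ERKi libraries and were under all DMSO libraries, at 0.72 (SE 0.056, adjusted p = 3.84e-08) against ERKi and -0.59 (SE 0.056, adjusted p = 9.91e-08) against DMSO. MKI67, the proliferation marker that coats mitotic chromosomes, had 489.6, 419.6 and 432 CPM in the combination libraries, 238, 246 and 246 in the ERKi libraries, 709.5, 674 and 722 in the venetoclax libraries and 560.4, 676 and 673 in the DMSO libraries. MKI67 groups were apart, except venetoclax and DMSO, with 0.88 (SE 0.068, adjusted p = 3.58e-08) against ERKi and -0.51 (SE 0.067, adjusted p = 4.7e-06) against DMSO.

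Per kilobase of the merged exons of each gene, the levels of the members in DMSO ran down to 4.48 CPM per kb for SGO1 and up to 137 CPM per kb for TOP2A. SPC25 was at 5.18 in DMSO, a mean raised by replicate 1. It was the lowest member in the combination (0.984), with ERKi (0.77) and with venetoclax (2.87). TOP2A was also highest in the combination, at 90.8 CPM per kb, and with ERKi, at 55.0, and NUSAP1 and TPX2 came next at 72.8 and 66.4 in the combination and 42.8 and 39.3 with ERKi. CDC20 was at 64.0 CPM per kb in the combination, 23.9 with ERKi, 89.4 with venetoclax and 87.8 with DMSO.

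**Figure D4:**
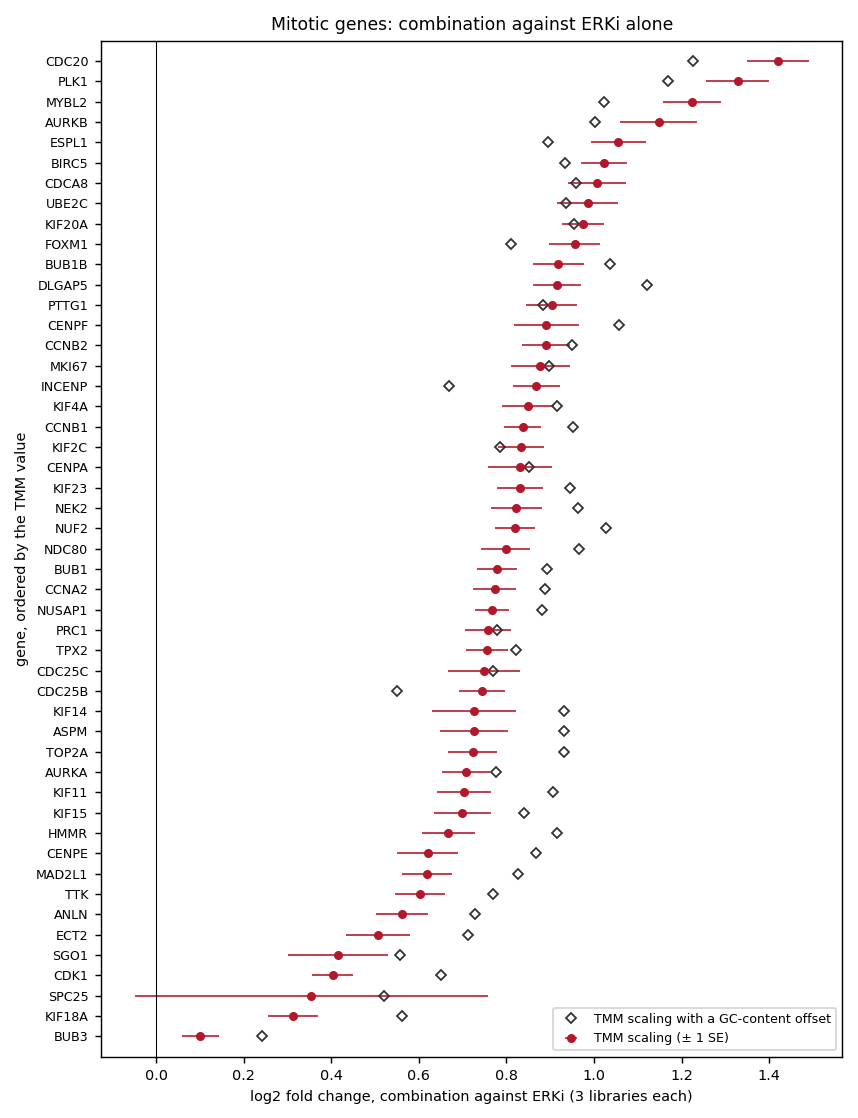
Log2 fold change of the combination against ERKi for the 49 genes, ordered by size, with TMM scaling (filled circles, bars ± 1 SE, 3 libraries each) and with a GC-content offset (open diamonds). All points lie above 0, from 0.10 for BUB3 to 1.42 for CDC20 with TMM scaling and from 0.24 to 1.23 with the offset.

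Within the 49 genes the size of the difference followed base composition. Across the genes, which share libraries and are not independent, the log2 fold change of the combination against ERKi had a Spearman correlation of 0.74 and a Pearson correlation of 0.69 with the GC content of the longest transcript. Over 14069 tested genes with a gene model the Spearman correlation was 0.341. The deviation of DMSO replicate 1 from the other DMSO libraries had a correlation with GC content as well, 0.685 over the members and 0.571 over the 14069 genes. When an offset that evens out counts over GC content in each library was added, after the data were seen, 48 of 49 members were higher in the combination than with ERKi, with a median of 0.90, and the correlation over the members fell to 0.158. The offset is built to remove a trend with GC content over all genes, whatever its source, so it weakens this correlation by construction. The source of the trend was not tested. The spread of the members' log2 fold changes narrowed from an SD of 0.243 to 0.176. CDC20 was then at 1.23, PLK1 at 1.17 and CDK1 at 0.65. The medians of the groups lay closer together, between 0.72 for cytokinesis and 0.96 for the mitotic kinases, where they had run between 0.53 for cytokinesis and 1.09 for the transcription factors. With ERKi against DMSO the correlation with GC content was -0.155 over the members, and all 49 stayed lower under the offset.

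The interaction followed GC content as well, with a Spearman correlation of 0.775 over the members and 0.0928 with the offset, which weakens it by construction. There the offset moved 9 members by over 1.5 times, all upwards: CDK1 to 0.62, CENPE to 0.76, ECT2 to 0.66, HMMR to 0.87, MAD2L1 to 0.73, KIF14 to 0.77, KIF18A to 0.54, SGO1 to 0.39 and BUB3 to 0.23. In the combination against ERKi it moved 3, CDK1, BUB3 and KIF18A, and with ERKi against DMSO it moved 0 of the 49. In the combination it moved 11 values against DMSO and 14 against venetoclax. Against DMSO, BUB3 was then at -0.22, CENPE at -0.41, KIF14 at -0.43, KIF18A at -0.34, ECT2 at -0.41 and INCENP at -0.56, beside the values of CDC25B, CENPF, ASPM, DLGAP5 and NEK2 given above. Against venetoclax, PLK1 was at -0.55 in place of -0.37, AURKB at -0.45 in place of -0.29, and KIF11 at -0.50 in place of -0.80.

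**Figure D5:**
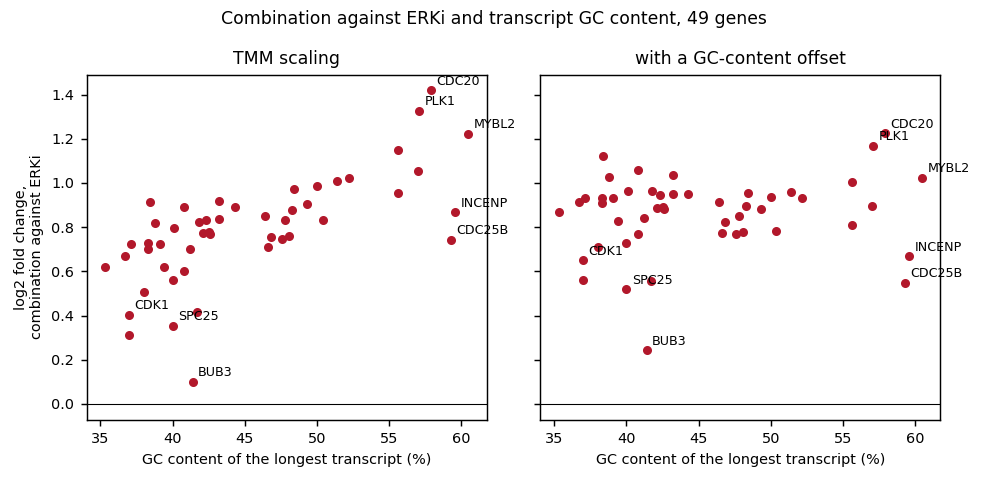
Log2 fold change of the combination against ERKi (vertical) by GC content of the longest transcript in percent (horizontal), 1 point per gene, with TMM scaling (left) and with a GC-content offset (right). On the left the points climb with GC content (Spearman 0.74, 49 genes), and on the right they do not (0.158), while all stay above 0. The offset is built to weaken such a trend.

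Other genes of the same pathways were read from lists. Over all tested genes, 26.5% were higher and 24.3% lower in the combination than with ERKi, and 34.5% higher and 35.2% lower with ERKi than with DMSO. Of 66 further mitotic genes, 57 were higher and 3 lower in the combination than with ERKi (median 0.61), and 60 were lower and 1 higher with ERKi than with DMSO (median -1.25). GTSE1, a microtubule protein of G2 and M, was at 1.04 against ERKi, the citron kinase CIT at 0.82 and the spindle protein SPAG5 at 0.81. Of 19 condensin and cohesin genes, 11 were higher and 2 lower in the combination than with ERKi (median 0.18), led by the condensin genes NCAPD2 (0.78), NCAPH (0.97) and NCAPG2 (0.65), and 16 were lower and 1 higher with ERKi than with DMSO (median -0.85).

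The APC/C itself had smaller log2 fold changes than its activator CDC20. Of 16 genes for its subunits and regulators, 7 were higher and 3 lower in the combination than with ERKi (median 0.15), and 11 were lower and 3 higher with ERKi than with DMSO (median -0.37). ANAPC11, the RING subunit, was at 0.70 against ERKi, ANAPC5 at 0.38, and FZR1 (CDH1), the activator of late mitosis and G1, at 0.54. Among 15 genes of MuvB, DREAM and NF-Y, 5 were higher and 1 lower in the combination than with ERKi (median 0.01), a share of risers near that over all genes, and 11 were lower and 1 higher with ERKi than with DMSO (median -0.57). E2F4, the main E2F of DREAM, was at 0.77 against ERKi, LIN9 of the MuvB core at 0.50 and TFDP1, the E2F partner, at 0.27. LIN52, also of the MuvB core and named here after its value was seen, was the 1 gene called lower, at -0.21. The lowest value of the 15 was that of E2F5, at -0.31, also named after it was seen. With the GC-content offset 8 of these 15 were higher (median 0.19). With DMSO replicate 1 left out, the ERKi medians against DMSO were -1.26 for the further mitotic genes, -0.87 for condensin and cohesin, -0.32 for the APC/C and -0.59 for MuvB, DREAM and NF-Y. In the same order, 63, 18, 12 and 11 genes were then lower, and 1, 1, 3 and 2 higher.

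Genes of the earlier cell cycle moved too. All 37 G1/S and replication genes were lower with ERKi than with DMSO, with a median of -1.77, and all 37 were lower in the combination than with DMSO, with a median of -1.21, where the mitotic genes had -1.38 and -0.53. In the combination against ERKi 35 of the 37 were higher, with a median of 0.52 where the mitotic genes had 0.80. Without DMSO replicate 1 the medians against DMSO were -1.17 in the combination and -1.76 with ERKi, with all 37 lower in each. The helicase genes MCM2, MCM4 and MCM3 were at 0.91, 0.66 and 0.68. Whether the lists differ from each other was not tested.

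Genes that restrain mitotic entry were called in both directions. Of 14 listed, 11 were tested: 5 were higher and 6 lower in the combination than with ERKi, and 6 were higher and 5 lower with ERKi than with DMSO, where the shares over all tested genes were 26.5% and 24.3%, and 34.5% and 35.2%. CDKN1A, the CDK inhibitor p21, had 10.5, 12.4 and 10.4 CPM in the combination libraries, 45.2, 49.1 and 45.3 in the ERKi libraries, 16.4, 15.5 and 15.9 in the venetoclax libraries and 28.6, 26.3 and 23.4 in the DMSO libraries. Combination libraries were the lowest and ERKi libraries the highest, with no overlap. CDKN1A was -2.06 (SE 0.086, adjusted p = 5.17e-11) in the combination against ERKi, -1.23 (SE 0.088, adjusted p = 3.14e-09) against DMSO, and 0.83 (SE 0.079, adjusted p = 6.5e-08) with ERKi against DMSO. Leaving out DMSO replicate 1 gave CDKN1A values of -1.17 for the combination and 0.90 for ERKi against DMSO. BTG2, an antiproliferative p53 target, was at -1.30 in the combination against ERKi and 0.95 with ERKi against DMSO. The same directions held for CDKN1B, the CDK inhibitor p27 (-0.52 and 0.40), and for CCNG1 (-0.61 and 0.81) and CCNG2 (-0.35 and 0.36), the G cyclins.

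The kinases that hold CDK1 inactive moved with the mitotic genes: WEE1 was at 0.22 in the combination against ERKi and -0.77 with ERKi against DMSO, and PKMYT1 (MYT1) at 0.96 and -1.77. The checkpoint kinases CHEK1 and CHEK2 were at 0.28 and 0.50 in the combination against ERKi, and at -1.61 and -0.92 with ERKi against DMSO. The stress genes parted: GADD45A was at -0.86 and -0.75, and GADD45B at 0.34 and 0.87, in the same comparisons. With the GC-content offset WEE1 was at 0.43, PKMYT1 at 0.63, CCNG2 at -0.18 and GADD45B at 0.14 in the combination against ERKi, the last of these not called (adjusted p = 0.0543). With venetoclax against DMSO, CDKN1A was -0.71 (SE 0.085, adjusted p = 0.00023) and BTG2 was -0.43 (SE 0.069, adjusted p = 0.00533). GADD45G, SFN and RPRM were too low to be tested.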

How the data were processed

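Poly(A) RNA of 12 libraries was sequenced as paired ends. The deposited table holds raw counts per gene symbol. The tools named in the submitters' processing notes are DESeq2, HTSeq and HISAT2, and the build is hg38; the sources used here give no versions, annotation or strand setting. No row lacked a gene name.

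The tests used edgeR 4.0.16 under R 4.3.3, with filterByExpr (minimum count 10, minimum total 15), TMM factors, 1 coefficient per group over all 12 libraries with 8 residual degrees of freedom, the quasi-likelihood test, p-values adjusted by Benjamini-Hochberg over 15173 genes, and calls at an adjusted p under 0.05. The biological coefficient of variation was 0.0727. The SE was taken as the size of the log2 fold change (prior count 0.125) over the root of the F statistic. TMM takes most genes as unchanged, so changes are relative to that. Scripts were tested on simulated counts. Library totals of 19199296 to 21275065 set the depth. Exact permutation of 3 against 3 libraries allows no p below 0.1, so no such test was used.

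Lengths, GC content and positions came from GENCODE 29 gene models, matched for 92.7% of tested symbols, and promoters from RefSeq. Figures used matplotlib 3.10.9. Members given in full were, per role, the one with most reads and the one with the largest difference between combination and ERKi, and those outside the majority or called with venetoclax. The members and gene lists were chosen with earlier results of these data known. Alternatives were RLE factors, DESeq2 1.42.0, limma-voom (limma 3.58.1), leaving each library out in turn, fitting only the compared libraries, blocking on the replicate number, and filtering not at all or at CPM 1 in at least 3 libraries. Total-count scaling and an offset for GC content (20 bins) were added after the data were seen.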

Additional observations from a re-analysis of the deposited data

Results flagged for a closer look

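For 46 of the 49 genes the effect of venetoclax differed by whether ERKi was present, by the tested interaction in edgeR's quasi-likelihood test. Values are the log2 effect of venetoclax with ERKi minus its effect without ERKi, and each is above 0. They were 1.23 for MYBL2 and 1.03 for FOXM1. In the cyclin and CDK engine they were 0.79 for CCNB2, 0.77 for CDC25B, 0.74 for CCNA2, 0.70 for CDC25C, 0.64 for CCNB1 and 0.30 for CDK1. The kinases PLK1, NEK2 and AURKA had 1.31, 0.65 and 0.64. In the passenger complex AURKB had 1.24, CDCA8 0.96, BIRC5 0.87 and INCENP 0.80. Anaphase genes had 1.39 (CDC20), 1.11 (ESPL1), 0.93 (UBE2C) and 0.75 (PTTG1).

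Checkpoint genes BUB1B, BUB1, TTK and MAD2L1 had 0.86, 0.69, 0.54 and 0.47. Kinetochore genes CENPF, CENPA, NUF2, NDC80 and CENPE had 0.77, 0.71, 0.65, 0.63 and 0.44. Among kinesins the values were 0.94 for KIF20A, 0.87 for KIF2C, 0.80 for KIF4A, 0.74 for KIF23, 0.64 for KIF11, 0.61 for KIF15, 0.51 for KIF14 and 0.22 for KIF18A. Spindle genes DLGAP5, NUSAP1, PRC1, TPX2, ASPM and HMMR had 0.79, 0.75, 0.73, 0.67, 0.64 and 0.55. ANLN and ECT2 had 0.43 and 0.40, and MKI67 and TOP2A had 0.74 and 0.60.

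These values followed the GC content of the genes (Spearman 0.775 over 49 members, 0.0928 with the GC-content offset, which weakens it by construction). With the offset CDK1 had 0.62, CENPE 0.76, ECT2 0.66, HMMR 0.87, MAD2L1 0.73, KIF14 0.77 and KIF18A 0.54.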

How the results depend on the processing

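ERKi lowered all 49 members under every alternative run. In the combination against ERKi, 48 members kept direction and call status throughout, all but BUB3. Of these, 47 were called higher in every setting, and SPC25 was called in none. Against DMSO and venetoclax the combination kept 46 and 47, and the interaction kept 45. With the GC-content offset ASPM turned to 0.20 against DMSO (adjusted p = 0.00153) and 0.18 against venetoclax (adjusted p = 0.00419), so 2 members were called higher in each; the cause was not tested. NEK2 in the combination against DMSO, not called, turned to 0.06. CENPF in the combination against DMSO (-0.10) and NEK2 against venetoclax (-0.07) then lost their calls, while SPC25, SGO1 and BUB3 gained one in the interaction, which was called for all 49.

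Venetoclax against DMSO depended most on the setting. Genes called higher numbered 1 with total-count scaling, the replicate block or only the libraries compared, 10 with the GC offset, 11 with DESeq2 and 74 with no filter, and 1 to 17 with a library left out. Genes called lower numbered 168 with no filter, 32 with only the libraries compared, and 30 to 81 with a library left out. Members called higher were 2 with DESeq2, 0 with total counts, the block, only the libraries compared or the GC offset, and 0 to 1 with a library left out. With no filter, 1 member other than CCNB1 was called higher and 1 member (SPC25) was called lower. The cause was not tested. Same-numbered replicates had correlations of -0.09 to 0.07 in their deviations from the group means. Such deviations cannot show whether same-numbered libraries were set up together, and the labels do not say. The block on the replicate number left 45 members called in the interaction.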
